A study of Mus musculus with 24 samples.

Results

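Expression of 6 genes that act on or belong to the extracellular matrix was followed across innate lymphoid cells sorted from mouse small intestine. They are the protease gene Mmp9, the protease inhibitor genes Timp1, Timp2 and Timp3, the matrix protein gene Spon2 and the secreted glycoprotein gene Angptl2. All 6 were found by symbol among the 55487 genes of the count table. RNA-seq had been done on 24 libraries, 3 in each of 8 groups formed by 4 sorted populations (labelled ILC1, NKp46, CCR6 and DN) and 2 genotypes. In the DKO mice, Cre under Vav1 control was combined with floxed Nr1d1 and Nr1d2, the genes of the REV-ERB nuclear receptors. The controls, labelled WT, were littermates that carried the floxed alleles. Vav1-driven Cre acts in blood cells as a whole, so a sorted cell and the blood cells around it had the same genotype. All mice were 8 to 12 weeks old. What DN stands for is not given in the sources used here, and nothing says whether a library came from 1 mouse or from several. The p-values given here therefore measure the spread between libraries, which may be technical.

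The 6 genes were selected on these same libraries. Genes called in a genotype comparison were ranked by size of change if DKO and WT libraries did not overlap and the higher group reached a minimum level. In that ranking Timp3 was 6th of 112 higher genes in ILC1 and 4th of 295 in DN. Spon2 was 3rd and Mmp9 8th of 372 in NKp46, Angptl2 was 5th of 369 in CCR6, and Spon2 was 8th of 295 in DN. An earlier naming rule had taken the first 8. In that sense Mmp9 at 8th in NKp46 lay just inside it, and Mmp9 and Angptl2, both 11th in CCR6 and DN respectively, lay outside it. Timp1 and Timp2 joined as family members, and Timp2 was 71st of 265 lower genes in DN. The genotype differences of these genes are for that reason given as a description, with no p-value. So is the lack of overlap, which was a condition in the comparisons that chose them.

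Matrix metalloproteinases are zinc enzymes that cut matrix proteins and some cytokines. MMP9, also called gelatinase B, is secreted as a proenzyme and digests denatured collagen and type IV collagen of basement membranes, and neutrophils and activated leukocytes are known sources of it. Tissue inhibitors of metalloproteinases (TIMPs) bind the active site of these enzymes. TIMP1 is well known to bind proMMP9 as well, TIMP2 takes part in activating proMMP2 at the cell surface, and TIMP3 stays bound to the matrix and also inhibits ADAM17 and several ADAMTS enzymes. Spondin-2, the product of Spon2, is a secreted matrix protein that binds integrins and microbial surfaces. ANGPTL2 is a secreted protein of the angiopoietin-like family, linked to inflammation and tissue remodelling.

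The bases upstream of Timp3 and Angptl2 are shown because these genes differed together between genotypes and are the ones among the 4 such genes with an entry in the promoter table. Sequences are from RefSeq on GRCm38.p6, whose windows run from 250 bases before to 50 bases after a gene's start, and 4 of the 6 genes had one (Timp1, Timp2, Timp3 and Angptl2). The Timp3 stretch is chr10:86300162-86300371 and the Angptl2 stretch chr2:33215711-33215960, both on the plus strand. Capitals mark the GC box GGGCGG in either orientation.
Timp3 upstream: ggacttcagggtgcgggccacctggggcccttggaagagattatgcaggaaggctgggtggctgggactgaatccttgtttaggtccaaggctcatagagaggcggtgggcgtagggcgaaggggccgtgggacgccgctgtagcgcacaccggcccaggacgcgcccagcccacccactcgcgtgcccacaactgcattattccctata
Angptl2 upstream: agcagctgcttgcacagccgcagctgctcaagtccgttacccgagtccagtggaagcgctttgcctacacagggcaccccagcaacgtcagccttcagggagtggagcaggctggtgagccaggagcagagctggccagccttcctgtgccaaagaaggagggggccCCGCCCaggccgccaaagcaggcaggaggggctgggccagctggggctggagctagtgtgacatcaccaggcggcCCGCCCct
The Angptl2 stretch held 2 GC boxes. The whole Timp3 window held 2, both beyond the end of the printed stretch. Timp1 and Timp2 had 1 each in their windows, and 35.7% of the 32851 windows of the table held at least 1. On either strand, none of the 4 windows contained AGGTCA, the half-site letters bound by many nuclear receptors (16.3% of windows), or TAGGTCA, which includes it (2.61%). The E-box CACGTG (7.15%) and the AP-1 letters TGANTCA (7.81%) were not in these 4 windows either. These letters are a description of a short window only.

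Positions are from GENCODE mouse release 21 on GRCm38. Mmp9 (ENSMUSG00000017737) lies on the plus strand of chromosome 2 from 164940780 to 164955850, with 15 exon blocks. Angptl2 (ENSMUSG00000004105) lies on the same chromosome from 33216069 to 33247717, inside Ralgps1 on the opposite strand, with 0 exon bases in common. Timp1 (ENSMUSG00000001131) is on chromosome X from 20870166 to 20874735, inside the synapsin gene Syn1, also with 0 shared exon bases. Timp2 (ENSMUSG00000017466) is on the minus strand of chromosome 11 from 118301069 to 118355740. Timp3 (ENSMUSG00000020044) is on chromosome 10 from 86300372 to 86349506 inside Syn3, and 1733 of its 8144 exon bases are also exon bases of Syn3 on the other strand. Spon2 (ENSMUSG00000037379) is on the minus strand of chromosome 5 from 33198184 to 33218455. The strand setting of the counting is not given in the sources used here, so reads of Timp3 and Syn3 over the shared bases may not have been told apart.

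The libraries held 12763228 to 84395154 counts in all, and WT ILC1 replicate 2 was the shallowest. Replicates of a group correlated at Spearman's rho 0.889 to 0.968 across genes. Nr1d1 was higher in DKO than in WT libraries in each population (1.77 to 5.08 times), which does not check the genotype, since the sources used here do not say which exons were floxed. The genes that define these cells, 12 in the list used, were detected in each group. Their summed level was 5748 to 5940 CPM (read counts scaled to a library total of 1000000) in DKO NKp46 against 10083 to 10596 in WT, and 7465 to 8347 in DKO CCR6 against 12520 to 13885 in WT. In such bulk samples, fewer cells of a kind and less RNA per cell cannot be told apart.

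**Figure D1:**
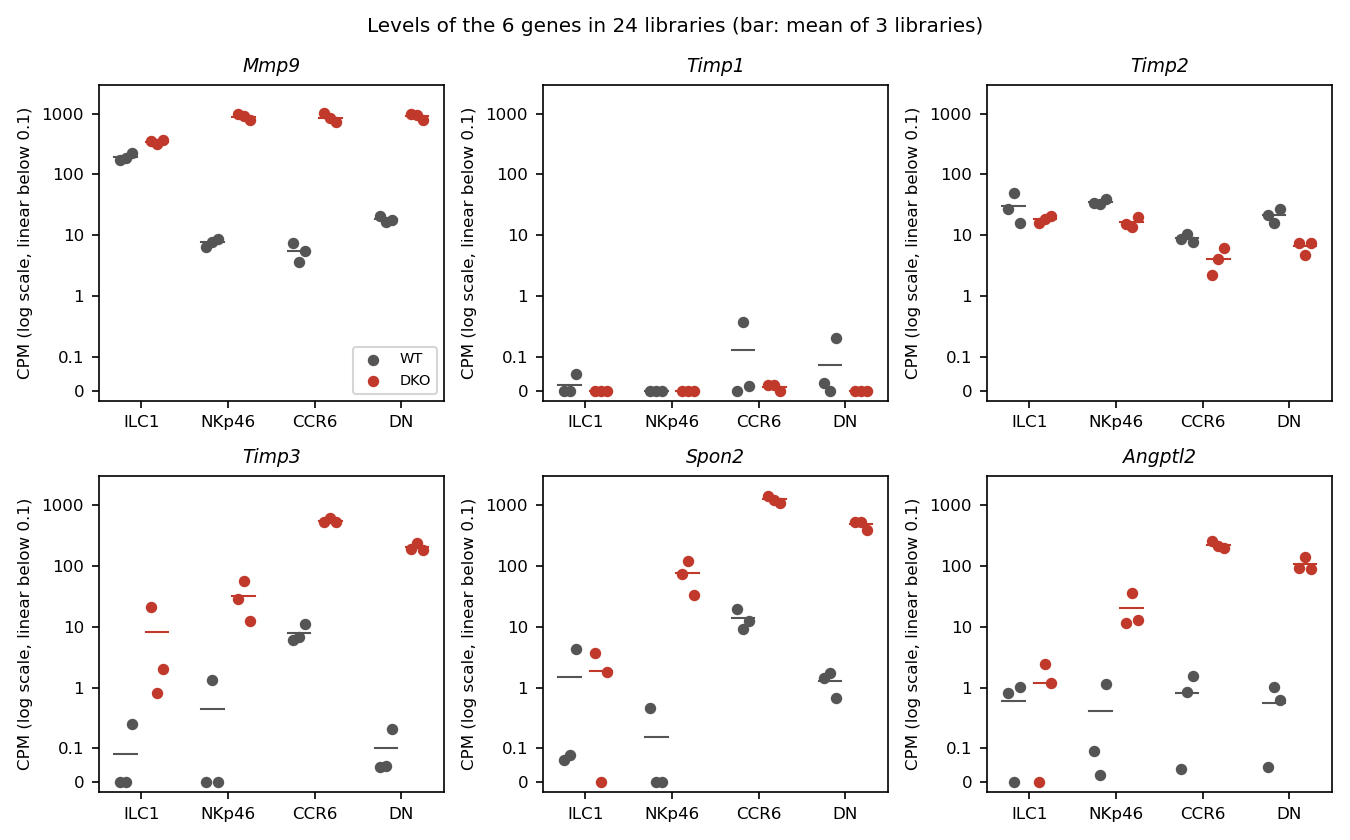
Level of each gene in each library, in CPM on an axis that is logarithmic above 0.1 and linear below it, by population; grey points are WT, red points DKO, bars the mean of 3 libraries. DKO libraries lie far above WT for Mmp9, Timp3, Spon2 and Angptl2 in NKp46, CCR6 and DN; in ILC1 the genotypes overlap for Spon2, Angptl2 and Timp2, and Timp2 lies lower in DKO in the other populations.

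Mmp9 was low, though read in every library, in 3 of the WT populations and high in each DKO population. WT NKp46 libraries held 6.49, 7.85 and 8.65 CPM, and DKO NKp46 libraries 972, 908 and 793 CPM. In CCR6 cells the WT values were 7.48, 3.69 and 5.6 CPM and the DKO values 1012, 829 and 721 CPM. In DN cells they were 21, 16.5 and 17.8 CPM in WT and 978, 941 and 790 CPM in DKO. The lowest DKO library thus stood far above the highest WT library in each of these populations. Mean levels differed 116-fold in NKp46, 153-fold in CCR6 and 49.0-fold in DN. ILC1 behaved differently at baseline, with 175, 185 and 223 CPM in WT libraries and 348, 311 and 361 CPM in DKO libraries. These groups did not overlap, but the means were only 1.75 times apart. On the log2 scale of the edgeR model the difference was 7.26 ± 0.24 (SE) for CCR6, 6.86 ± 0.24 for NKp46, 5.62 ± 0.22 for DN and 0.81 ± 0.19 for ILC1 cells, each with 3 libraries a group. The ILC1 difference no longer passed the threshold under 6 of 12 other settings, among them leaving out DKO replicate 1, 2 or 3 or WT replicate 1 or 2 (0.73 to 0.88), whereas in the other populations the difference passed under every setting run. The DKO effect was larger than that in ILC1 by 6.05 ± 0.28 in NKp46, 6.45 ± 0.28 in CCR6 and 4.81 ± 0.27 in DN (log2). DKO levels came together at 891 ± 90.8 (SD, n = 3) CPM for NKp46, 854 ± 147 for CCR6 and 903 ± 99.4 for DN cells, and the libraries of these 3 groups overlapped. DKO ILC1 libraries, at 340 ± 25.8 CPM, were below all of them.

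Myeloid cells are a known source of MMP9, so their markers are given beside it. The 12 myeloid markers summed to 118 to 158 CPM in WT NKp46 and 63.3 to 86.9 in DKO NKp46, to 43.6 to 66.2 in WT and 41.9 to 44.4 in DKO CCR6, and to 49.6 to 86.2 in WT and 69.5 to 80.7 in DKO DN. None of the 11 tested markers rose in any population, Fcgr3 fell in NKp46 and Itgax in CCR6, and Ly6g was at 0 in DKO NKp46. In ILC1 the sum was 283 to 747 CPM in WT and 140 to 162 in DKO. The part of these markers in the Mmp9 result was not tested.

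The inhibitor genes took separate courses. Timp1 had almost no reads. It was at 0 counts in the DKO ILC1, WT NKp46, DKO NKp46 and DKO DN libraries, which allows up to 0.0367 CPM (3 counts over the group, in DKO NKp46, the shallowest of these groups). The other groups had 2 counts in WT ILC1, 33 in WT CCR6, 2 in DKO CCR6 and 9 in WT DN. Of the 33, 32 came from replicate 2. Timp1 did not pass the filter on low counts and was not tested, so 5 of the 6 genes were.

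Timp2 was, per exon length, the main TIMP of each WT group, and its mean was lower in DKO than in WT libraries of each population. In DN cells WT libraries had 21.8, 15.8 and 27.5 CPM and DKO libraries 7.58, 4.68 and 7.55 CPM, with no overlap. This difference was -1.71 ± 0.36 (log2, SE, n = 3) and passed the threshold, except without DKO DN replicate 2 (-1.52). NKp46 libraries held 34.5, 32.8 and 40.1 CPM in WT and 15.3, 13.7 and 20.0 in DKO. CCR6 libraries held 8.66, 10.5 and 7.73 CPM in WT and 2.25, 4.05 and 6.07 in DKO. Neither pair of groups overlapped, and neither difference passed the threshold (-1.13 ± 0.35 and -1.12 ± 0.36). They passed it under 5 of 13 and 4 of 13 other settings, leaving out WT ILC1 replicate 2 (-1.14 and -1.12) or, in CCR6, DKO replicate 3 (-1.51) among these. ILC1 libraries overlapped, at 26.5, 48.9 and 15.8 CPM in WT and 15.6, 18.8 and 20.8 CPM in DKO.

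Timp3 was at or under 1.31 CPM in WT libraries other than CCR6 and was abundant in DKO CCR6 and DN cells. WT CCR6 libraries held 6.08, 6.86 and 11.1 CPM, and DKO CCR6 libraries 526, 602 and 534 CPM. WT DN libraries held 0.0445, 0.0491 and 0.206 CPM (12 counts in all), and DKO DN libraries 190, 239 and 184 CPM. The mean was 69.0 times higher in DKO CCR6 cells, where Timp3 was already expressed in WT. In DN cells, the difference ran from 12 counts in WT to 30748 in DKO. In NKp46 cells the DKO libraries varied more, at 28.6, 55.4 and 12.6 CPM, and WT reads, 64 counts, all came from replicate 2. Over all WT NKp46 libraries the means differed 73.5-fold. Only without replicate 2, when the WT group had 0 counts, was the pooled DKO level at least 692-fold higher (3 counts over the 2 remaining libraries). Log2 differences were 5.96 ± 1.08 in NKp46, 6.11 ± 1.00 in CCR6 and 11.00 ± 1.38 in DN. They moved to 5.30 without DKO NKp46 replicate 2 and to 12.01 without WT DN replicate 3.

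In ILC1 the Timp3 difference rested on few reads. WT libraries had 0, 0 and 0.254 CPM (10 counts), and DKO libraries 21.3, 0.812 and 2.03 CPM, so 1 DKO library was 10 or more times the other two. The log2 difference of 6.01 ± 1.39 passed the threshold, and it did not under 8 of 11 other settings. Without DKO ILC1 replicate 1 it was 3.62. Without WT replicate 1 or 2 it was 5.35 and 5.75, and without WT replicate 3, the only WT library with Timp3 reads, it did not pass either, with DKO at least 77.8-fold higher against 3 counts.

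Syn3 was examined because its exons overlap those of Timp3. It had 2 counts in WT CCR6 and 755 in DKO CCR6, and 5 in WT DN and 257 in DKO DN. Those DKO counts were 0.851% and 0.836% of the Timp3 counts in the same groups. DKO Syn3 levels were 5.96, 5.29 and 2.27 CPM in CCR6 and 1.76, 1.10 and 1.96 CPM in DN. Syn3 was called in CCR6 (edgeR adjusted p = 0.0050) and not in DN (adjusted p = 0.079), and whether these reads came from Syn3 or from Timp3 was not tested. The other synapsin genes, Syn1 and Syn2, had at most 1.03 CPM in any library, and Syn1 was not called in any genotype comparison.

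Spon2, the matrix protein gene, reached the highest level of the 6 genes per exon length, in DKO CCR6 cells. WT CCR6 libraries held 19.9, 9.32 and 12.3 CPM, and DKO CCR6 libraries 1418, 1211 and 1088 CPM. WT DN libraries held 1.42, 1.77 and 0.671 CPM, and DKO DN libraries 527, 529 and 395 CPM. In both populations each DKO library stood far above each WT library, by 89.5 times at the mean in CCR6 and 376 times in DN. In NKp46 cells the DKO libraries held 72.3, 119.7 and 33.5 CPM. The WT reads there, 15 counts, were all in replicate 1, and over all libraries the means differed 491-fold. Only without that WT library was DKO at least 2021-fold higher (3 counts over the 2 remaining libraries). Log2 differences were 9.07 ± 1.27 for NKp46, 6.49 ± 0.98 for CCR6 and 8.54 ± 1.10 for DN cells, and the NKp46 value was 8.30 without WT replicate 2. ILC1 libraries overlapped, at 0.0645, 0.0804 and 4.37 CPM in WT and 3.77, 0 and 1.81 CPM in DKO, and the difference of -0.02 ± 0.95 had no stable sign.

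Angptl2, the secreted glycoprotein gene, was under 2 CPM in every WT library. In CCR6 cells, WT libraries held 0.0380, 0.859 and 1.56 CPM and DKO libraries 252, 213 and 200.2 CPM. In DN cells, WT libraries held 0.0445, 1.01 and 0.619 CPM and DKO libraries 90.7, 141 and 89.0 CPM. In NKp46 cells, WT libraries held 0.0919, 0.0205 and 1.14 CPM and DKO libraries 11.7, 35.7 and 13.1 CPM. WT and DKO libraries did not overlap in these 3 populations. The log2 differences were 8.03 ± 1.12 in CCR6, 7.60 ± 1.13 in DN and 5.73 ± 1.10 in NKp46. Leaving out 1 library moved them to 8.83 (WT CCR6 replicate 3), 8.37 (WT DN replicate 2), 8.58 (WT NKp46 replicate 3), 5.05 (WT NKp46 replicate 2) and 5.0 (DKO NKp46 replicate 2), and each passed. ILC1 libraries overlapped, with 0.806, 0 and 1.02 CPM in WT and 0, 2.41 and 1.20 CPM in DKO.

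**Figure D2:**
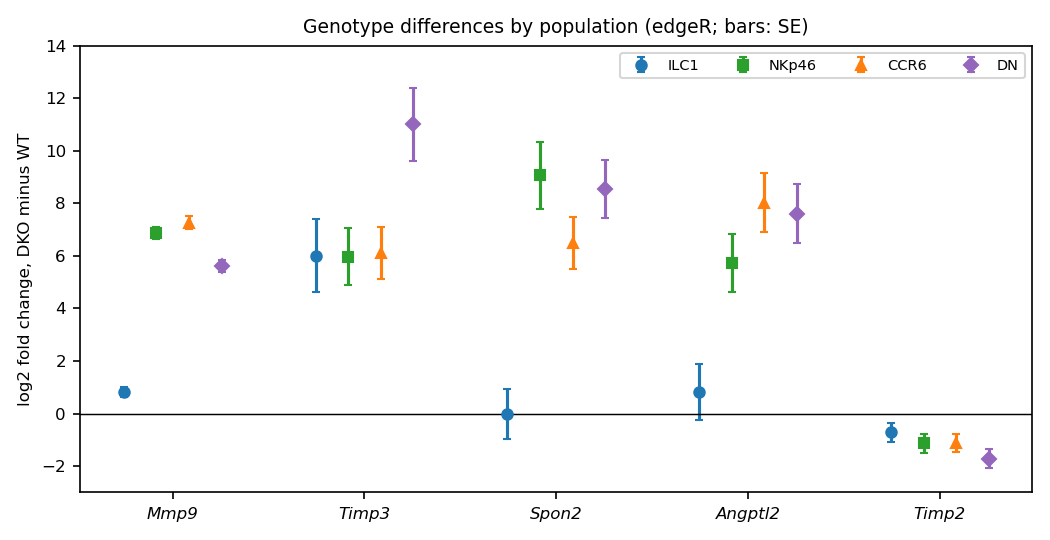
Log2 fold change of DKO minus WT for the 5 tested genes, by population; symbols are edgeR estimates and bars their SE, with 3 libraries a group. Mmp9, Timp3, Spon2 and Angptl2 lie between 5.62 and 11.00 in NKp46, CCR6 and DN, Spon2 lies at -0.02 in ILC1, and Timp2 lies below 0 in each population.

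By count, 2 of the 5 tested genes rose in ILC1 (Mmp9 and Timp3), where 0.78% of all tested genes rose and 0.277% fell. In NKp46 4 rose (background 1.99% higher, 2.17% lower), in CCR6 4 rose (1.93% higher, 2.04% lower), and in DN 4 rose and 1 fell (1.49% higher, 1.34% lower). Mmp9 and Timp3 were called higher in all 4 populations, as were 0.277% of tested genes, and 0.0987% were called lower in all 4. Since these comparisons chose the genes, nothing is read from the counts. The median log2 difference over the 5 tested genes was 7.60 for DN, 6.49 for CCR6, 5.96 for NKp46 and 0.81 for ILC1, beside medians of 0 to -0.04 over all genes tested.

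The rising genes differed in how they were ranked among DKO populations. Spon2 and Angptl2 were highest in DKO CCR6, then DN, then NKp46, then ILC1, and the libraries of neighbouring groups in that order did not overlap. Timp3 followed the same order, with overlap between NKp46 and ILC1 only. Mmp9 was level across CCR6, DN and NKp46. The 4 genes together made up 0.287% of all counts in DKO CCR6 cells, 0.170% in DKO DN, 0.102% in DKO NKp46 and 0.0351% in DKO ILC1. The WT shares were 0.0197% (ILC1), 0.00283% (CCR6), 0.00204% (DN) and 0.000867% (NKp46). Across the 24 libraries, log2 CPM of Timp3 and Spon2 had a Pearson r of 0.900, Spon2 and Angptl2 0.809, and Timp3 and Angptl2 0.783. Mmp9 followed them less closely (0.608 with Timp3), and Timp2 ran opposite to Timp3 (-0.859) and Spon2 (-0.876). These values describe libraries that share genotype and population.

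For a rough comparison between genes, levels were divided by the length of all annotated exons of the gene. Which transcripts were expressed was not examined, and reads over the Timp3 bases shared with Syn3 may be miscounted. Per kilobase of exon (CPM per kb), the sum of the TIMP genes was 3.43 ± 0.497 (SD, n = 3) in WT CCR6 and 69.1 ± 5.2 in DKO CCR6, and 5.66 ± 1.63 in WT DN and 26.8 ± 3.25 in DKO DN. In NKp46 cells it was 9.24 ± 0.918 in WT and 8.15 ± 1.93 in DKO, which overlapped. The make-up of the sum changed more than its size there. Timp3 gave 0.627% ± 1.09 of the TIMP sum in WT NKp46 and 45.4% ± 21.4 in DKO NKp46. In CCR6 cells its share went from 29.0% ± 10.2 to 98.4% ± 0.713, and in DN cells from 0.197% ± 0.132 to 93.5% ± 2.23. Timp2 supplied most of the rest. Mmp9 per kb was 0.234 ± 0.0259 times the TIMP sum in WT NKp46 and 31.8 ± 6.23 times in DKO NKp46. The ratio was 0.482 ± 0.225 and 3.52 ± 0.757 in WT and DKO CCR6, and 0.964 ± 0.244 and 9.58 ± 1.16 in WT and DKO DN, without overlap in these populations. In ILC1 it was 8.90 ± 5.71 in WT and 17 ± 1.87 in DKO, which overlapped. The smallest DKO ratio was that of CCR6 cells, the population with the most Timp3. These are ratios of transcripts, not of active enzyme and inhibitor.

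**Figure D3:**
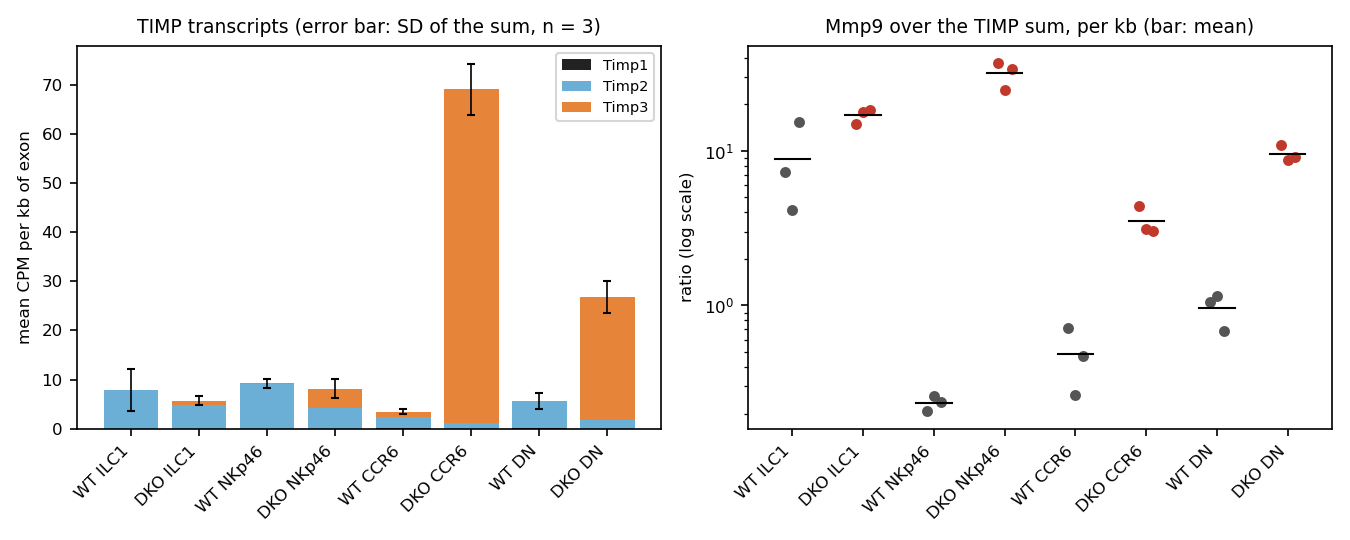
Left, mean CPM per kb of exon of the 3 TIMP genes stacked by group, with the SD of their sum over 3 libraries; right, the ratio of Mmp9 to that sum per library on a log axis, grey WT and red DKO, bars the mean. DKO CCR6 and DKO DN bars are almost wholly Timp3 (98.4% and 93.5%), and the ratio rises from 0.234 to 31.8 in NKp46.

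The populations also differed among WT mice. These comparisons share the WT NKp46 libraries. In WT ILC1 against WT NKp46, Mmp9 was 25.4 times higher (log2 4.67 ± 0.22) and was the 1 gene of the 6 called, where 5.13% of tested genes were higher and 5.6% lower. In WT CCR6 against WT NKp46, Spon2 (6.62 ± 1.24) and Timp3 (3.96 ± 1.03) were higher and Timp2 was lower (-2.00 ± 0.36), with backgrounds of 2.82% and 3.41%. The Timp3 call in WT CCR6 was lost under 5 of 12 other settings, among them without WT NKp46 replicate 1 (3.46) or 3 (3.47) or WT CCR6 replicate 3 (3.65). The WT NKp46 reads of Spon2 came from 1 library, and so did those of Timp3. Without that library the fitted difference was 12.25 for Spon2 (WT NKp46 replicate 1) and 11.45 for Timp3 (WT NKp46 replicate 2), against 0 counts, and these values are no bounds. In WT DN against WT NKp46, Mmp9 was higher (1.26 ± 0.19), with backgrounds of 2.25% and 0.723%, and was not called with limma voom (1.27). Timp3 and Spon2 were thus above NKp46 in WT CCR6 cells, the population in which they were also highest in DKO.

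Other genes of the same pathways were read from 7 lists with 174 genes in the table. Of these, 139 were tested and 30 were called in at least 1 genotype comparison. The lists, like the members, were chosen with earlier results of these data known. Their counts and p-values are therefore a description and no independent support. Across the lists 5 rose and 2 fell in ILC1, and 8 rose and 9 fell in NKp46. In CCR6 6 rose and 11 fell, and in DN 6 rose and 9 fell. Among all tested genes, 0.78% rose and 0.277% fell in ILC1, and 1.99% and 2.17% in NKp46. The shares were 1.93% and 2.04% in CCR6, and 1.49% and 1.34% in DN. At such shares few or no calls are likely in a short list, so nothing is read from a list with none. The median log2 difference of the 139 was -0.19, -0.35, -0.47 and -0.27 in ILC1, NKp46, CCR6 and DN. Over all genes tested it was 0, -0.016, -0.021 and -0.044. All p-values here are edgeR's quasi-likelihood values with Benjamini-Hochberg adjustment over all genes.

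Among 14 tested metalloproteinases other than Mmp9, none rose in any population and the same 2, Mmp25 and Mmp23, fell in each. Mmp25, a membrane-anchored enzyme also called leukolysin, went from 57.7 ± 20.0 to 5.70 ± 2.34 CPM (SD, n = 3) in NKp46 (log2 -3.34 ± 0.35 SE, adjusted p = 2.7e-06). It went from 73.1 ± 15.4 to 22.5 ± 2.63 CPM in CCR6 (adjusted p = 0.0021), from 78.3 ± 2.12 to 17.7 ± 3.78 CPM in DN (adjusted p = 0.00030) and from 12.0 ± 4.94 to 2.78 ± 1.00 CPM in ILC1 (adjusted p = 0.0011). Mmp23, another membrane-type enzyme, fell from 52.4 ± 4.29 to 12.6 ± 1.98 CPM in CCR6 (adjusted p = 0.00085) and from 13 ± 3.47 to 1.78 ± 0.194 CPM in DN (adjusted p = 4.5e-05). Its fall in NKp46 was by 1.83 ± 0.36 and in ILC1 by 1.70 ± 0.36 (log2), and the ILC1 call was lost under 6 of 12 other settings, which included leaving out WT replicate 1 or any DKO replicate.

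Those adamalysins that were called moved the other way. Of 19 tested ADAM and ADAMTS genes, 4 rose in NKp46, 3 in DN and 2 in CCR6 cells. Among all tested genes 1.99%, 1.49% and 1.93% rose there. None of the 19 was called in ILC1, and none fell in any population. The median log2 difference of the 19 was -0.27 in NKp46, -0.04 in CCR6, 0.43 in DN and 0.31 in ILC1, so the list as a whole had no common direction. Adam8, a leukocyte sheddase, rose from 18.0 ± 6.53 to 89.2 ± 23.8 CPM in NKp46 (adjusted p = 1.6e-05) and from 33.1 ± 7.65 to 127 ± 33.7 CPM in DN (adjusted p = 0.00010). In CCR6 it was 74.8 ± 6.23 CPM in WT and 143 CPM in DKO (adjusted p = 0.052). Adamts14, a procollagen N-propeptidase, rose from 2.04 ± 0.326 to 19.3 ± 7.90 CPM in NKp46 (adjusted p = 1.3e-05) and from 2.73 ± 1.04 to 10.5 ± 2.43 CPM in DN (adjusted p = 0.0025). Adam12 rose by 1.19 ± 0.25 (log2) in CCR6 (adjusted p = 0.0049). Its smaller rises in NKp46 (adjusted p = 0.048) and DN (adjusted p = 0.044) were each lost under 7 of 13 other settings, which included leaving out any DKO library of the population. Adamts2, of the same procollagen peptidase group as Adamts14, had 19 counts in WT CCR6 and 1350 in DKO CCR6 (adjusted p = 0.018), a call lost without WT CCR6 replicate 2 or 3 or DKO CCR6 replicate 1. Adamts9 had 1 count in WT NKp46 and 134 in DKO NKp46, for which no fold is given. It was called higher (adjusted p = 0.032, edgeR), a call lost without any 1 WT NKp46 replicate or DKO NKp46 replicate 1 or 2.

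Of 14 tested inhibitors on the lists, 3 fell in CCR6, 2 in DN and 2 in NKp46 cells, and 1 rose in ILC1. Serpinb6b, an intracellular serine protease inhibitor, fell from 233 ± 16.6 to 114 ± 5.56 CPM in NKp46 (adjusted p = 0.0039), from 95.7 ± 13.9 to 44.7 ± 9.04 CPM in CCR6 (adjusted p = 0.0019) and from 182 ± 20.1 to 81.9 ± 1.88 CPM in DN (adjusted p = 0.0016). Serpine2, protease nexin-1, fell from 201 ± 97.7 to 36.6 ± 10.5 CPM in CCR6 (adjusted p = 0.00096) and from 35.6 ± 12.1 to 8.75 ± 4.87 CPM in DN (adjusted p = 0.0076), the DN call being lost without WT replicate 1 or DKO replicate 2 or 3. In ILC1 it rose from 4.16 ± 1.60 to 15.3 ± 6.79 CPM (adjusted p = 0.043), a call lost under 8 of 12 other settings, among them without any DKO replicate or without WT replicate 1 or 2. Reck, a membrane inhibitor of MMP9, went from 147 counts in WT NKp46 to 4 in DKO NKp46 (adjusted p = 0.025). That call was lost under 6 of 13 settings, which included leaving out any DKO NKp46 library or WT NKp46 replicate 2 or 3. Of 11 tested plasminogen activator and cathepsin genes, 3 fell in NKp46, 3 in CCR6 and 1 in DN, with none higher. Ctsl fell from 89.8 ± 3.19 to 34.8 ± 2.52 CPM in CCR6 (adjusted p = 0.0011), and Ctsh from 120.01 ± 12.5 to 45.7 ± 9.57 CPM in NKp46 (adjusted p = 0.00088).

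Of 59 tested matrix protein genes, 2 to 3 rose and 0 to 3 fell per population. Ecm1, a secreted glycoprotein that is known to inhibit MMP9, and Abi3bp, a matrix-binding protein, rose in each of the 4 populations. Ecm1 went from 28.5 ± 10.2 to 153 ± 15.6 CPM in ILC1 (adjusted p = 7.5e-06), from 67.6 ± 23.0 to 594 ± 122 CPM in NKp46 (adjusted p = 1.3e-07), from 321 ± 66.2 to 1282 ± 293 CPM in CCR6 (adjusted p = 2.0e-05) and from 107 ± 9.12 to 986 ± 112 CPM in DN (adjusted p = 7.7e-08). Its WT level was highest in CCR6, as for Timp3 and Spon2. Abi3bp rose most in CCR6, from 16.7 ± 5.06 to 240.2 ± 29.7 CPM (log2 3.84 ± 0.21, adjusted p = 6.6e-11), and by 1.99 ± 0.19 in ILC1, 2.19 ± 0.19 in NKp46 and 2.82 ± 0.20 in DN. Tnc, the gene of tenascin C, had 339 counts in WT CCR6 and 0 in DKO CCR6, which is at least 83.8-fold lower against 3 counts over the group (adjusted p = 0.020). Its call was lost without WT CCR6 replicate 1 or any DKO CCR6 replicate. Tnn had 1 count in WT NKp46 and 67 in DKO NKp46, and its call was lost with limma voom and without any 1 WT NKp46 replicate or DKO NKp46 replicate 2. None of the 8 tested angiopoietin and angiopoietin-like genes other than Angptl2 was called in any genotype comparison.

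Among 14 genes for binding partners and receptors, Cd63, a tetraspanin bound by TIMP1, fell in NKp46, CCR6 and DN. It went from 4.79 ± 2.66 to 0.985 ± 0.542 CPM in NKp46 (adjusted p = 0.011), from 3.79 ± 1.06 to 0.913 ± 0.187 CPM in CCR6 (adjusted p = 0.019) and from 6.11 ± 1.04 to 1.02 ± 0.275 CPM in DN (adjusted p = 0.0043). The NKp46 call was lost without WT replicate 3 or DKO replicate 2 or 3, and the CCR6 call without WT replicate 1 or any DKO replicate. Cd44, a surface anchor of MMP9, rose in CCR6 from 345 ± 29.5 to 572 ± 36.9 CPM (adjusted p = 6.3e-05). Itgb2, the beta chain of an integrin that binds spondin-2, rose in CCR6 from 173 ± 9.92 to 380.0 ± 75.2 CPM (adjusted p = 0.0021). Itga5, the alpha chain of a fibronectin receptor, fell in NKp46 from 127 ± 5.79 to 51.8 ± 0.271 CPM (adjusted p = 0.00049). Sdc1, a cell-surface proteoglycan, rose in ILC1 by 1.71 ± 0.24 (log2, adjusted p = 0.00019). Sdc4, of the same list, rose in ILC1 (0.97 ± 0.13, adjusted p = 0.00013), NKp46 (0.56 ± 0.13, adjusted p = 0.013) and DN (0.66 ± 0.13, adjusted p = 0.0041). It was not called in CCR6. The NKp46 call was lost under 3 of 13 other settings and the ILC1 call under 1 of 12.

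**Figure D4:**
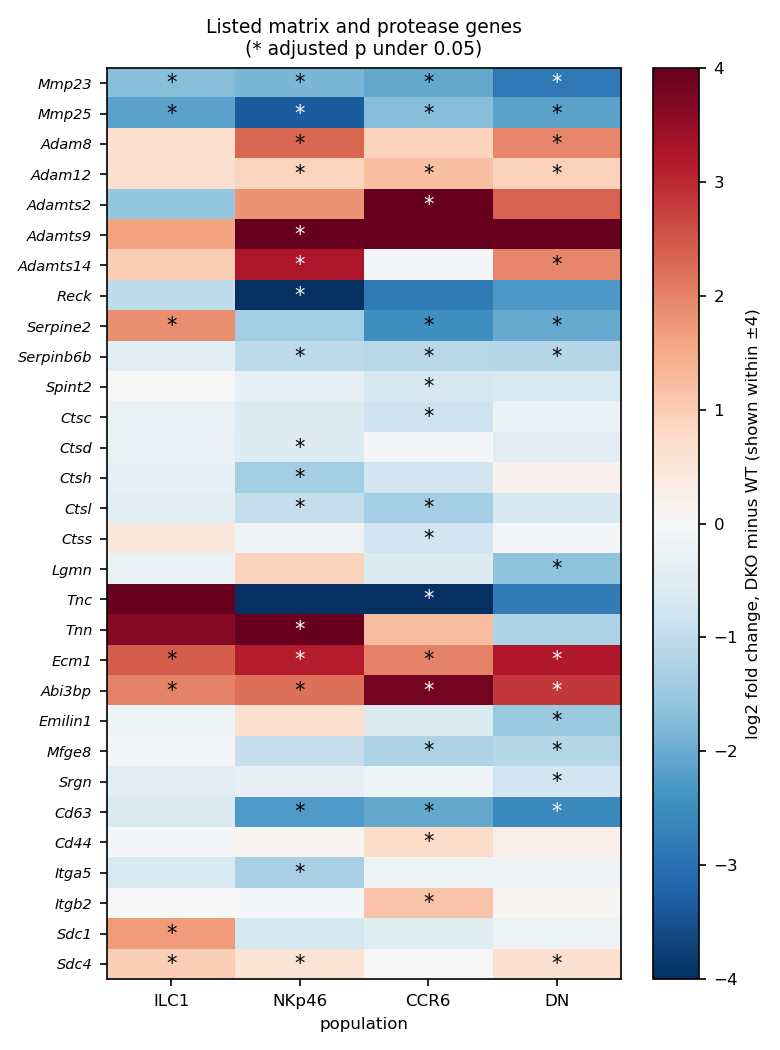
Log2 fold change of DKO minus WT, drawn within ±4, for the 30 listed genes called in at least 1 population (columns); a star marks an adjusted p under 0.05. Ecm1 and Abi3bp are starred and red in all 4 columns, Mmp23 and Mmp25 starred and blue in all 4, and cells of genes with few reads, such as Tnc and Adamts9, reach the end of the scale without a star in some columns.

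Among WT populations the same lists gave 15 higher and 13 lower genes for ILC1 against NKp46. They gave 13 and 9 for CCR6, and 5 and 2 for DN. Among all tested genes, 5.13% were higher and 5.6% lower for ILC1, 2.82% and 3.41% for CCR6, and 2.25% and 0.723% for DN. Beside Mmp9, WT ILC1 had more Adamts14 (23.1 ± 5.53 against 2.04 ± 0.326 CPM, adjusted p = 1.9e-06) and Cst7 (adjusted p = 1.2e-06) and less Mmp25 (adjusted p = 7.8e-05) and Adamts15 (3.42 ± 3.19 against 45.2 ± 1.32 CPM, adjusted p = 0.0057). WT CCR6 had more Ecm1 (adjusted p = 3.1e-06), Adam8 (adjusted p = 2.8e-05), Serpine2 (adjusted p = 1.6e-05) and Mmp23 (adjusted p = 0.0037) than WT NKp46. Of these, Ecm1 was also higher in DKO than in WT CCR6 cells, and Serpine2 and Mmp23 were lower.

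The genes whose log2 CPM ran most like each member over the 24 libraries were then listed, as a description. Mmp9 was nearest to D16Ertd472e (r = 0.954), Ncald (0.944) and Sash1 (0.932). Ncald, which encodes the calcium sensor neurocalcin delta, had means of 9.84 CPM in WT and 49.4 CPM in DKO NKp46, and 21.3 and 37.0 CPM in ILC1. Timp3 was nearest to Ecm1 (0.934), Adam8 (0.928) and Fam184b (0.922), 2 of them genes of the lists above. Spon2 was nearest to Dnph1 (0.922), Ecm1 (0.915) and Palld (0.913). Palld, which encodes the actin-bundling protein palladin, had the order seen for Spon2, with DKO means of 152 CPM for CCR6, 58.7 for DN, 20.6 for NKp46 and 2.34 for ILC1. Angptl2 was nearest to Pik3r6 (0.927), Plekhs1 (0.923) and the phosphofructokinase gene Pfkp (0.914). Timp2 was nearest to Ikzf2 (0.917), Arap3 (0.907) and Tent5a (0.907).

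Genes next to the 6 were examined after the members' values were known. Apart from Syn3, 1 of them was called in a genotype comparison. Slc12a5, a potassium chloride cotransporter gene 4.95 kb beyond Mmp9, was higher in DKO CCR6 (log2 4.53 ± 1.24, adjusted p = 0.039), a call lost when any CCR6 library was left out. Ralgps1, which contains Angptl2, stood at 2.65 to 3.17 CPM in the WT CCR6 libraries and 4.67 to 5.24 in the DKO ones and was not called (adjusted p = 0.77).

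Markers of other cells were read beside these results. The 12 stromal and endothelial markers summed to 385 to 401 CPM in WT and 401 to 482 in DKO CCR6, to 344 to 417 in WT and 381 to 464 in DKO DN, and to 289 to 341 in WT and 332 to 381 in DKO NKp46. Pdgfrb rose in NKp46, CCR6 and DN, from 79.3 ± 10.1 to 222 ± 21.3 CPM in CCR6. Thy1 fell in DN. Collagen and decorin transcripts were close to 0 in CCR6 cells. Col1a1 was at 0.230 and 0.0994 CPM and Dcn at 0.287 and 0.0823 CPM in WT and DKO CCR6. In ILC1 Col1a1 was higher, at 8.57 ± 11.1 CPM (SD) in WT and 4.65 ± 0.275 CPM in DKO. The stromal and endothelial markers there summed to 277 to 431 CPM in WT and 262 to 281 in DKO. Pdgfra was at 0 in WT NKp46 and WT DN, Kdr in DKO NKp46, and Cdh5 in DKO CCR6 and DKO DN. Of 10 epithelial markers, Krt18 rose in CCR6 and DN, the sum being 5.77 to 10.0 CPM in WT and 18.6 to 37.3 in DKO CCR6. In CCR6 the mean of Krt18 went from 3.24 to 16.5 CPM and that of Krt8, which was not called, from 3.15 to 8.04 CPM. Each other epithelial marker had a mean at or under 0.381 CPM in DKO CCR6. In DN the sum was 19.9 to 23.6 CPM in WT and 41.3 to 57.0 in DKO libraries. The 10 T cell markers summed to 3081 to 3238 CPM in WT DN and 1358 to 1577 in DKO DN, and 7 of them fell. In CCR6 they summed to 756 to 922 CPM in WT and 705 to 782 in DKO, with Cd8a the 1 that fell. Cd3g fell in ILC1 and Trac rose in NKp46. The 8 B and plasma cell markers summed to 422 to 682 CPM in WT ILC1 and 715 to 1131 in DKO ILC1, and to 190 to 275 in WT NKp46 and 326 to 789.9 in DKO NKp46, without overlap, and Ighm was called higher in NKp46. Cd79b fell in NKp46, CCR6 and DN. In CCR6 their sum was 144 to 722 CPM in WT libraries and 76.6 to 140 in DKO ones, and in DN it overlapped, at 320.4 to 408 and 245 to 588 CPM. The 10 ILC2 markers summed to 243 to 384 CPM in WT DN and 92.3 to 156 in DKO DN. Their sum was also lower without overlap in CCR6 (31.4 to 53.2 in WT, 10.5 to 12.8 in DKO) and ILC1 (25.6 to 61.4, 12.2 to 23.7). In NKp46 it overlapped, at 36.3 to 50.0 CPM in WT and 30.6 to 36.8 in DKO. Klrg1 fell in NKp46 and CCR6 and Hpgds in CCR6, and Il4 rose in NKp46. The part of the T cell, B cell, ILC2, epithelial, Pdgfrb and Thy1 differences in the results of the 6 genes was not tested.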

How the data were processed

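RNA was measured in 24 libraries of sorted cells, 3 in each of 8 groups taken from the labels. The deposited values are raw read counts per Ensembl gene. Per the submitters' processing notes, the authors used mm10, STAR 2.7.9a, featureCounts 2.0.3, Salmon 1.5.2, DESeq2 and R 4.1, and which of them made the counts is not given in the sources used here. Of 55774 rows, 55487 genes were kept (168 IDs stood on more than 1 row, with equal counts). There were 0 unused columns. Depth was 12763228 to 84395154 counts per library. Without molecular identifiers, floors (3 counts) cover counting error only.

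Here, edgeR 4.0.16 in R 4.3.3 normalized the counts (TMM), filtered low genes by group to 21286, and fitted a robust quasi-likelihood model of 8 group means with 16 residual degrees of freedom, checked on simulated data. A gene is called, and said to rise or fall, at a Benjamini-Hochberg adjusted p under 0.05 over these genes. CPM uses the TMM factors, correlations log2 CPM with a prior count of 2. SEs are the size of the log2 fold change over the root of F. Alternatives were DESeq2 1.42.0, limma 3.58.1 (voom), no filter, the 2 groups alone, the replicate number as a block, and each library left out. Members and lists were chosen with earlier results of these data known. The lists name up to 4 called genes per genotype comparison and 3 per WT comparison by adjusted p, of which the text gives a part, and 3 like genes per member.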

Additional observations from a re-analysis of the deposited data

Results flagged for a closer look

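For some of the listed genes, every DKO library lay above every WT library in one population and below every WT library in another. Not all of these differences passed the threshold, and no test of the difference between populations is given here. Serpine2 was called higher in DKO ILC1 (log2 1.85) and lower in CCR6 (-2.46) and DN (-2.02), and its value in NKp46 (-1.35) was not called. Sdc1 was called higher in DKO ILC1 (1.71), and its values in NKp46 (-0.71), CCR6 (-0.47) and DN (-0.22) were not called. Emilin1 and Lgmn were called lower in DN (-1.49 and -1.61), and their values in NKp46 (0.63 and 0.91) were not called. Tnc was called lower in CCR6, where DKO libraries had 0 counts, and its fitted value of 5.24 in ILC1, from few reads, is no bound and was not called.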

How the results depend on the processing

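Over the alternatives, 221 of 251 genotype values of the members kept their direction and their side of the threshold, 15 lost the call, 9 gained one and 6 turned sign. For WT comparisons the numbers were 169 of 184, 6, 2 and 7, and for the other named genes 771 of 909, 128, 9 and 1 by genotype and 452 of 490, 38, 0 and 0 among WT. DESeq2 gave Timp3 no adjusted p in any comparison, so it counts neither as kept nor as lost there.

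The 2 members called in ILC1 became 1 with DESeq2, voom, no filter or the replicate block, 0 with the 2 groups alone, and 0 to 1 with a library left out. Listed genes called by genotype went from 7 to 2 in ILC1 with the 2 groups alone, from 17 to 26 (DESeq2) in NKp46, and from 17 to 27 (DESeq2), 30 (voom) and 31 (2 groups alone) in CCR6. Leaving out 1 library gave 5 to 8 in ILC1, 10 to 22 in NKp46 and 9 to 17 in DN (main value 15), the lowest without WT NKp46 replicate 3 and DKO DN replicate 2. Among WT, ILC1 against NKp46 went from 28 to 44 (DESeq2) and 13 (2 groups alone), and DN against NKp46 from 7 to 13 (DESeq2) and 12 (2 groups alone), or 3 to 9 with a library left out (3 without WT NKp46 replicate 1, 4 without its replicate 2 or WT DN replicate 2). The cause was not tested.

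Spon2 in ILC1 turned from -0.02 to 0.29 (DESeq2), 0.083 (voom), 0.060 (no filter) and 0.28 (2 groups alone). With a library left out it ran from -0.83 (without DKO ILC1 replicate 1) to 4.62 (without WT ILC1 replicate 3), and 0.59 without DKO ILC1 replicate 2. Syn3 there ran from -3.21 to 0.13 (main -0.99). In WT ILC1 against NKp46, leaving out a library gave -0.75 to 0.045 for Timp2 and -0.97 to 9.28 for Spon2, both turning without WT ILC1 replicate 3, and -7.50 to 5.37 for Timp3, turning without WT NKp46 replicate 2. In WT DN against NKp46, Timp3 became 0.18 with voom and ran from -3.37 to 5.11 (without WT NKp46 replicate 2), and Angptl2 from -0.23 (without WT DN replicate 2; -0.15 without WT NKp46 replicate 2) to 3.38. None of these was called in the main model.

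Same-numbered replicates deviated together at r of -0.03 to 0.08, with 0 pairs over 0.1. These small values do not settle whether the numbers pair the libraries. With the replicate block, 5 members were called for DN, 4 for CCR6, 4 for NKp46 and 1 for ILC1, and 16, 18, 18 and 7 listed genes in that order. Every DKO DN library deviated most like the WT DN library of its own number. Every WT CCR6 and WT DN library did so with the WT NKp46 library of its own number. The best match was sought from that side only, so this is a hint. The labels repeat the numbers across populations, and what they stand for is not given. The block joins equal numbers of both genotypes, so it does not model a pairing within a genotype alone. Depth limits Timp1, with 0 to 33 counts a group.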
